A study of Mus musculus with 6 samples.

Results

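The Htra serine proteases of the mouse are encoded by 4 genes, *Htra1*, *Htra2*, *Htra3* and *Htra4*, and each has 1 record among the 44788 gene symbols counted in tail tendons of wild-type (WT) and *Mkx*-/- mice. The records were taken by symbol. The family was chosen by the measured rise of *Htra4* in the *Mkx*-/- tendons, one of the largest in the data, so the values of *Htra4* in this contrast are given as a description and carry no test. The other 3 genes entered as relatives of *Htra4*, whatever their own values. *Mkx* encodes Mohawk, a homeobox transcription factor of tendon cells, and mice without it form bone inside their tendons. The study used these mice as a model of heterotopic ossification and sequenced bulk RNA to find genes that differ in the mutant tendon. There were 3 WT and 3 *Mkx*-/- libraries, all from tail tendon of untreated C57BL/6 mice labelled as 3 weeks old. The study's text gives a somewhat greater age, and neither source tells the sexes, litters or number of mice behind a library. How the *Mkx* allele was made is not given in the sources used here. All cells of the dissected tissue were sequenced together, so fewer cells of a type and less RNA per cell cannot be told apart.

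HtrA proteins, named after a bacterial factor needed for growth at high temperature, are serine proteases with a trypsin-like core followed by a PDZ domain, which binds the ends of other proteins. HtrA1, HtrA3 and HtrA4 are secreted, and carry a stretch related to IGF-binding proteins and a Kazal-like inhibitor stretch ahead of the protease. HtrA1 and HtrA3 cut matrix proteins such as fibronectin and proteoglycans and dampen signalling by TGF-beta family ligands, and HtrA1 is abundant in cartilage and joint tissue. HtrA2, also called Omi, lies between the membranes of the mitochondrion, where it takes part in protein quality control, and when released into the cytosol it binds inhibitor-of-apoptosis proteins. HtrA4 is best known from placenta.

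The genes lie on 4 different chromosomes. In the GENCODE annotation of mm9, the build to which the reads were aligned, *Htra1* (ENSMUSG00000006205.7) lies on the plus strand at chr7:138079625-138129174 and *Htra2* (ENSMUSG00000068329.6) on the minus strand at chr6:83001260-83005267. *Htra3* (ENSMUSG00000029096.8) lies on the minus strand at chr5:35994682-36022431 and *Htra4* (ENSMUSG00000037406.5) on the minus strand at chr8:26135400-26149434. The reference transcripts of *Htra1*, *Htra3* and *Htra4* have 9 exons each and that of *Htra2* has 8, and they encode 480, 459, 483 and 458 amino acids in the order *Htra1*, *Htra3*, *Htra4* and *Htra2*. *Htra3* has a long and a short form, of which the short form lacks the PDZ domain. Counts summed over a gene cannot separate them.

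The coding sequence at the catalytic serine is shown here because it marks the 4 genes as one family and shows how far reads from it can be told apart. It was taken for this serine, not for being their most alike part. The lines give 60 coding bases of the mm9 reference from 5′ to 3′, and the capitals mark the codon of the catalytic serine, which is codon 328 of *Htra1*, 306 of *Htra2*, 311 of *Htra3* and 332 of *Htra4*. The stretch runs over a splice junction in each gene, from exon 5 to exon 6 in *Htra1*, *Htra3* and *Htra4* and from exon 4 to exon 5 in *Htra2*, so each interval holds an intron that is not printed.
Htra1, chr7:138123469-138125200, plus strand: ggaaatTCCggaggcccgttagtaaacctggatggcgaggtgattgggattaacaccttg
Htra2, chr6:83002768-83003061, minus strand: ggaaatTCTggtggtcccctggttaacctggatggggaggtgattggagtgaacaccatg
Htra3, chr5:36006697-36008092, minus strand: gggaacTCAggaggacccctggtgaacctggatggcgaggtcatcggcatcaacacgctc
Htra4, chr8:26141069-26143461, minus strand: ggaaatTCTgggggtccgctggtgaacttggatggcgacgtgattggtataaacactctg
In this stretch any pair of genes differed at 11 to 15 of the 60 bases, with the closest pair being *Htra2* and *Htra4*. Over the whole reference transcripts the longest run of bases shared by any pair was 12 to 17. The length of the sequenced reads is not given in the sources used here, but a read longer than this run that matched without error would fit 1 member only.

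The libraries held 10835070 to 14160301 counts. *Mkx*, the targeted gene, had a level of 138 ± 4.92 CPM (SD, n = 3) in WT libraries and 45.7 ± 9.68 CPM (SD, n = 3) in *Mkx*-/- tendons, where CPM are counts scaled by TMM to a common library size, so the labels and the counts of the targeted gene point the same way although reads on it remained. *Col1a1*, *Col1a2* and *Sparc* took 42.0 to 48.5% of the WT counts and 28.3 to 34.8% of the *Mkx*-/- counts, so the scaling matters. The Y-linked *Ddx3y* had 301 counts in WT replicate 3 and 0 elsewhere, and that library had 1 count of *Xist* where the others had 1289 to 1866. These counts point to male tissue in WT replicate 3 alone, so sex was not balanced between the genotypes. The part of sex in the contrast was not tested. Of 44788 symbols, 14550 had enough counts to be tested, including all 4 Htra genes, and *Htra4* passed this filter through its counts in the *Mkx*-/- libraries. A gene was called at an adjusted p under 0.05 in edgeR's quasi-likelihood test with a log2FC beyond 1 in either direction, where log2FC is the log2 fold change of *Mkx*-/- over WT.

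Levels of the 4 Htra genes are compared with each other here as CPM per kilobase of the reference transcript. Where other genes are ranked by abundance, the ranking uses CPM without regard to length. In WT tendons *Htra1* was at 273 ± 35.1 and *Htra3* at 214 ± 27.0 CPM per kilobase (SD, n = 3 each), *Htra2* at 26.1 ± 3.85 and *Htra4* at 0.287 ± 0.0578. In *Mkx*-/- tendons the values were 235 ± 39.5 for *Htra1*, 181 ± 12.7 for *Htra3*, 32.5 ± 2.85 for *Htra2* and 8.11 ± 3.89 for *Htra4* (SD, n = 3 each). The order was thus the same in both genotypes, with the matrix proteases *Htra1* and *Htra3* highest, the mitochondrial *Htra2* below them and *Htra4* lowest. *Htra1* was above *Htra3* in every library of both genotypes. In WT replicate 1 this pair was nearly equal, at 233.1 and 232.7 CPM per kilobase, so the WT ranges nearly met. In *Mkx*-/- tendons *Htra1* was at 201 to 278 CPM per kilobase and *Htra3* at 173 to 196. The steps from *Htra3* to *Htra2* and from *Htra2* to *Htra4* were larger than the spread in both genotypes.

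*Htra4*, the placental protease, was barely counted in WT tendon. The 3 WT libraries held 9, 7 and 6 reads, with exact 95% Poisson intervals of 4.12 to 17.1, 2.81 to 14.4 and 2.20 to 13.1 reads that cover counting error only. The 3 *Mkx*-/- libraries held 145, 391 and 155 reads. As normalized levels these were 0.709, 0.687 and 0.481 CPM in WT libraries and 13.3, 27.5 and 12.3 CPM in *Mkx*-/- tendons, so the groups lay far apart, and replicate 2 of the *Mkx*-/- group was about as far above its fellows as their own level. The means were 0.626 ± 0.126 CPM (SD, n = 3) and 17.7 ± 8.49 CPM (SD, n = 3), a log2FC of 4.81 (standard error 0.42), or 28.04-fold. This was the 6th largest log2FC of all 14550 tested genes, which is the property that chose it. Without *Mkx*-/- replicate 2 the log2FC was 4.34.

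The rise of *Htra4* can also be described against its relatives in the same library, which needs no scaling. The same *Htra4* reads chose the family, so these ratios restate the rise and are no separate evidence of it. For each read of *Htra2* there were 0.0184, 0.0133 and 0.0107 reads of *Htra4* in the WT libraries. In the *Mkx*-/- libraries there were 0.220, 0.483 and 0.242. In WT tendon *Htra4* was thus a trace beside the mitochondrial member, and in *Mkx*-/- tendon it came within the same order of magnitude. It remained small beside *Htra1*, at 0.0234, 0.0670 and 0.0266 reads of *Htra4* for each read of *Htra1* in the *Mkx*-/- libraries. The normalized level of the 4 genes together was 1151, 1253 and 1155 CPM in WT libraries and 1176, 971 and 998 CPM in *Mkx*-/- tendons, and these ranges overlapped.

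**Figure D1:**
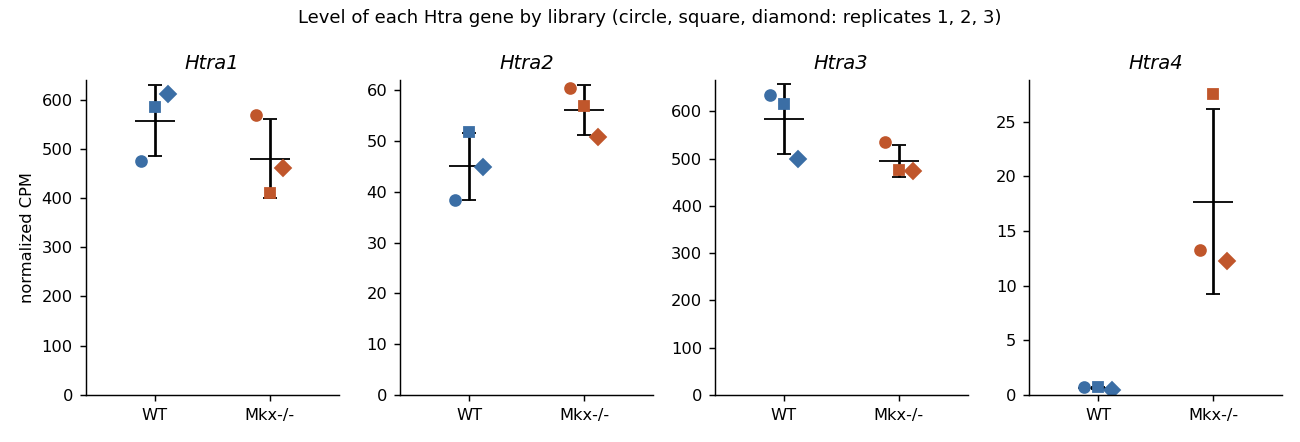
Normalized level in CPM (vertical axes, each from 0) of the 4 Htra genes in WT (blue) and *Mkx*-/- (orange) tendons, where each point is a library and the bars give the mean and SD of 3 libraries. Only the points of *Htra4* separate by genotype, from 0.481 to 0.709 CPM in WT libraries and from 12.3 to 27.5 CPM in *Mkx*-/- tendons, and the groups overlap in the other 3 panels.

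Markers of other cell types also differed between the libraries. The summed level of 20 skeletal muscle markers was 109 to 487 CPM in WT libraries and 673 to 3468 CPM in *Mkx*-/- libraries, and 19 of the 20 were higher in *Mkx*-/- tendons. Of the 20, 6 were called upregulated and 0 downregulated, against 1.89% and 1.33% of all tested genes. The muscle sum was 3468 CPM in *Mkx*-/- replicate 1, 1668 CPM in replicate 2 and 673 CPM in replicate 3. *Acta1* and *Myh1*, the most abundant of these markers, are genes of the contractile apparatus. The sum of 14 endothelial markers, among which *Eng* and *Tek* were the most abundant in WT, was 102 to 128 CPM in WT libraries and 170 to 240 CPM in *Mkx*-/- libraries, with 12 of 14 higher. The one called was *Erg*, an endothelial transcription factor gene, where 1.89% of all tested genes were called upregulated. It was also the most abundant marker of this list in *Mkx*-/- libraries. *Erg* was at 6.78, 8.44 and 9.69 CPM in WT and at 44.1, 37.1 and 26.9 CPM in *Mkx*-/- libraries (log2FC 2.12, adjusted p in edgeR = 0.00195). Within the *Mkx*-/- group it was thus lowest in replicate 3, where the endothelial sum was highest. The sum of 11 Schwann cell markers, which include the myelin gene *Mbp*, was 6152 to 8443 CPM in WT libraries and 9831 to 18412 CPM in *Mkx*-/- libraries, with all 11 higher. Of these 11, 0 were called in either direction. The endothelial and the Schwann cell sums were both highest in *Mkx*-/- replicate 3.

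Of 13 cartilage markers, 12 were in the table and 10 were tested, of which 8 were higher. Among the 10, 3 were called upregulated and 0 downregulated, against 1.89% and 1.33% of all tested genes. The sum of the list, mostly from *Chad* and *Col2a1*, was 1473 to 1656 CPM in WT libraries and 1998 to 2326 CPM in *Mkx*-/- libraries, highest in replicate 2, and *Matn1* was at 0 in every library. The sum of 13 macrophage and leukocyte markers, led by *Lyz2* and *Csf1r*, was 640 to 696 CPM in WT libraries and 410 to 511 CPM in *Mkx*-/- libraries, with all 13 lower. Among the 13, 0 were called upregulated and 2 downregulated, against 1.89% and 1.33% of all tested genes. The sum of 10 tendon markers, which is nearly all *Col1a1* and *Col1a2*, was 382676 to 525485 CPM in WT libraries and 246228 to 341186 CPM in *Mkx*-/- libraries, so the labelled tissue was present in both. The list itself was mixed, with 4 of 10 higher and 6 lower and a median log2FC of -0.029. Of these 10, 1 was called upregulated and 0 downregulated, against 1.89% and 1.33% of all tested genes. For placenta, the organ in which HtrA4 is best known, 6 of 10 trophoblast markers (*Gcm1*, *Synb*, *Tpbpa*, *Hand1*, *Cdx2* and *Prl3d1*) were at 0 in every library, and the sum of the list, mostly *Syna* with *Ascl2* next, was 6.62 to 12.1 CPM in WT libraries and 13.7 to 24.5 CPM in *Mkx*-/- libraries. Osteoblast markers, among which *Alpl* and *Runx2* had the highest means over all 6 libraries, summed to 4.49 to 7.21 CPM and 8.99 to 9.43 CPM. Adipocyte markers, mostly *Fabp4*, with *Lep* next in WT and at 0 in the *Mkx*-/- libraries, summed to 2.32 to 3.86 CPM and 2.47 to 4.22 CPM, and keratinocyte markers, led by *Trp63* and *Dsp*, to 13.6 to 29.4 CPM and 24.5 to 28.6 CPM. The part of these cells in the level of *Htra4* was not tested.

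**Figure D2:**
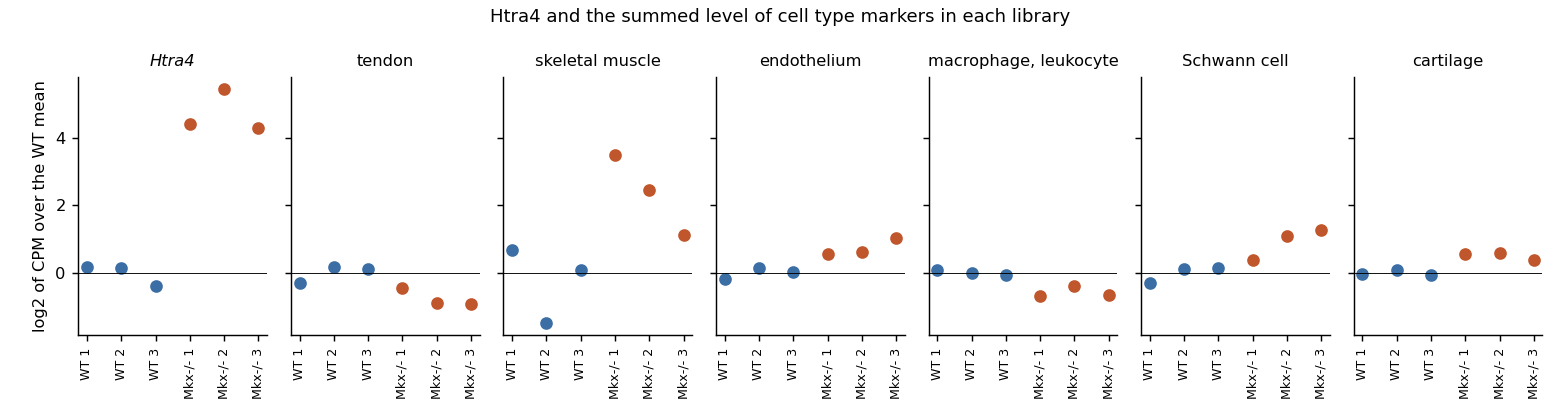
Log2 of the CPM in each library over the mean of the WT libraries (vertical axis, shared) for *Htra4* and for the summed markers of 6 cell types, with WT in blue and *Mkx*-/- in orange. Among the *Mkx*-/- libraries, *Htra4*, cartilage (2326 CPM) and macrophage and leukocyte markers (511 CPM) are highest in replicate 2. Skeletal muscle (3468 CPM) and tendon (341186 CPM) are highest in replicate 1, and endothelium and Schwann cells in replicate 3 (240 and 18412 CPM).

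*Htra1* and *Htra3*, the secreted members that act on matrix, had somewhat lower means in *Mkx*-/- tendons and neither passed the test, and with libraries scaled by their totals alone both had log2FC values just above 0, at 0.037 and 0.0061. *Htra1* was at 476, 585 and 611 CPM in WT libraries and at 568, 410 and 461 CPM in *Mkx*-/- tendons. The lowest WT library was below the highest *Mkx*-/- library, so the groups overlapped. Its means were 557 ± 71.6 and 480 ± 80.6 CPM (SD, n = 3 each), with a log2FC of -0.22 (standard error 0.17, adjusted p in edgeR = 0.499). Its 95% interval ran from -0.60 to 0.17, which lies within a change of 2-fold in either direction.

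*Htra3* was at 636, 616 and 499 CPM in WT libraries and at 535, 477 and 473 CPM in *Mkx*-/- tendons. WT replicate 3 lay below *Mkx*-/- replicate 1, and the other libraries were in order of genotype. The means were 583 ± 73.8 and 495 ± 34.6 CPM (SD, n = 3 each), with a log2FC of -0.24 (standard error 0.14, adjusted p in edgeR = 0.382, 95% interval -0.57 to 0.094). The balance between the 2 matrix proteases, read within each library, was 1.34, 1.05 and 0.817 reads of *Htra3* for each read of *Htra1* in WT. It was 0.942, 1.16 and 1.03 in *Mkx*-/- tendons, all inside the WT range.

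*Htra2*, the mitochondrial member, had a higher mean in *Mkx*-/- tendons and did not pass the test. It was at 38.4, 51.7 and 44.8 CPM in WT libraries and at 60.5, 56.8 and 50.7 CPM in *Mkx*-/- tendons. The highest WT library, replicate 2, was just above the lowest *Mkx*-/- library, replicate 3, so the groups overlapped by this pair alone. The means were 45.0 ± 6.64 and 56.0 ± 4.91 CPM (SD, n = 3 each), with a log2FC of 0.32 (standard error 0.14, adjusted p in edgeR = 0.236, 95% interval -0.0093 to 0.64). When libraries were scaled by their total counts alone the log2FC was 0.58 with an adjusted p in edgeR of 0.0327. That scaling raised the median log2FC of all tested genes from -0.0037 to 0.25, and relative to this median *Htra2* was at 0.33, against 0.32 with TMM scaling.

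Among *Htra1*, *Htra2* and *Htra3*, edgeR thus called 0 genes, DESeq2 called 0, and 0 had an unadjusted p under 0.05, as 12.5% of all tested genes did in the higher and 10.1% in the lower direction. Over all tested genes edgeR called 1.89% upregulated and 1.33% downregulated. *Htra4* alone of the 4 had groups that did not overlap, where 28.2% of all tested genes had such groups. Nothing is read from these counts about the family, since the contrast is the one that chose it. With 3 libraries per group the smallest two-sided p of an exact permutation test is 0.1, and p-values here come from the model fitted across all genes.

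**Figure D3:**
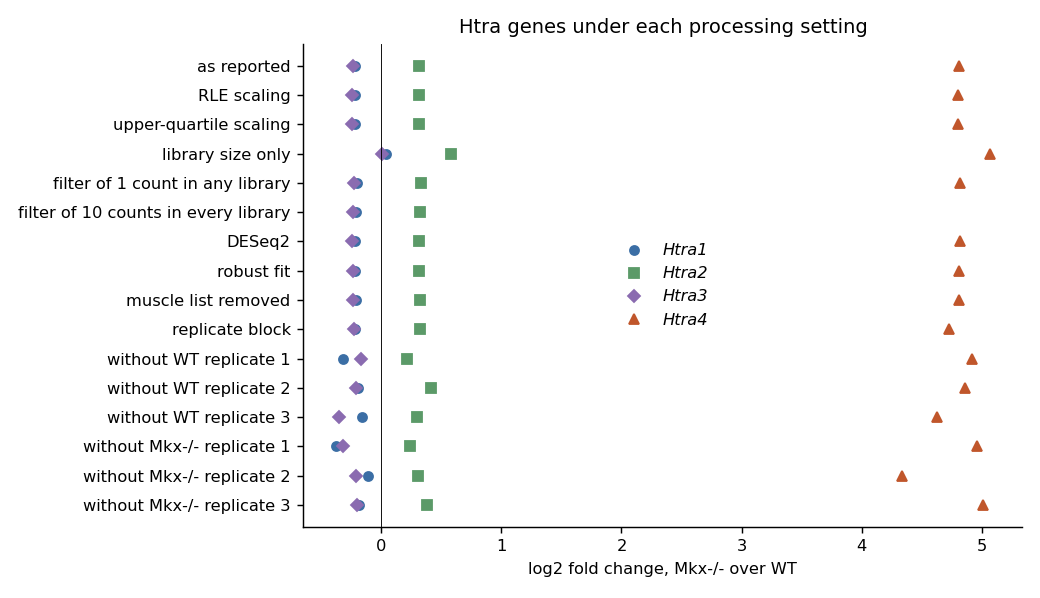
Log2 fold change of *Mkx*-/- over WT (horizontal axis) of the 4 Htra genes under the reported processing and 15 alternatives (rows). *Htra4* stays between 4.34 and 5.07 where it could be fitted, *Htra2* between 0.21 and 0.58, and *Htra1* and *Htra3* lie just below 0 except with library size only, where they are at 0.037 and 0.0061.

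The genes beside the Htra genes were examined for reads that could be shared between overlapping records and for shifts of a whole region. *Htra4* has *Tm2d2*, a gene for a membrane protein, 1669 bp away on one side and *Plekha2*, which encodes a phosphoinositide-binding adaptor, 182 bp away on the other. *Plekha2* was at 15.5, 16.2 and 15.9 CPM in WT libraries and at 16.5, 17.99 and 15.5 CPM in *Mkx*-/- tendons, a log2FC of 0.073 (standard error 0.12). *Tm2d2* was at 44.3, 40.0 and 41.0 CPM in WT libraries and at 55.7, 50.1 and 48.8 CPM in *Mkx*-/- tendons, so its groups did not overlap, but its log2FC of 0.30 did not pass the test (adjusted p in edgeR = 0.164). Both thus differed far less between the genotypes than *Htra4*. *Adam9*, a metalloprotease gene 8006 bp away on the strand of *Htra4*, rose from 56.3, 63.5 and 61.7 CPM in WT to 108, 111 and 93.0 CPM in *Mkx*-/- tendons, with a log2FC of 0.78 (adjusted p in edgeR = 0.0120) that is below the size needed for a call. The annotation also places a noncoding record, *Gm16933*, on the opposite strand over 1911 bp at the start of *Htra4*. Whether the counting used strand is not given in the sources used here, so reads of *Gm16933* could be among those of *Htra4*. *Gm16933* has no record among the counted symbols, so its own level cannot be given.

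*Htra2* overlaps 2 genes on the opposite strand, *Loxl3*, a lysyl oxidase relative that crosslinks collagen, by 1297 bp, and *Aup1*, a gene of lipid droplets and protein degradation, by 621 bp. *Loxl3* was at 147 to 188 CPM in WT libraries and 143 to 213 CPM in *Mkx*-/- tendons, and *Aup1* at 62.6 to 73.9 and 65.0 to 72.9 CPM. Their log2FC values were 0.12 and -0.0031 (adjusted p in edgeR = 0.746 and 0.992). Both thus had higher mean CPM than *Htra2*, without regard to length, and without known strand handling some of their reads could be counted on *Htra2*. The nearest genes that do not overlap it, *Dok1* and *Dqx1*, had log2FC values of -0.030 and -0.50 (adjusted p in edgeR = 0.945 and 0.338).

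The neighbours of *Htra1* and *Htra3* did not pass the test either. *Plekha1*, beside *Htra1*, had a log2FC of 0.23 (adjusted p in edgeR = 0.313), and *Dmbt1*, on its other side, was at 0 in every library. A record of the growth factor receptor gene *Fgfr2* spans *Htra1* on the opposite strand in this annotation and had a log2FC of -0.34 (adjusted p in edgeR = 0.237). *Acox3* and *Sh3tc1*, on either side of *Htra3*, had -0.016 and -0.12 (adjusted p in edgeR = 0.968 and 0.879).

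**Figure D4:**
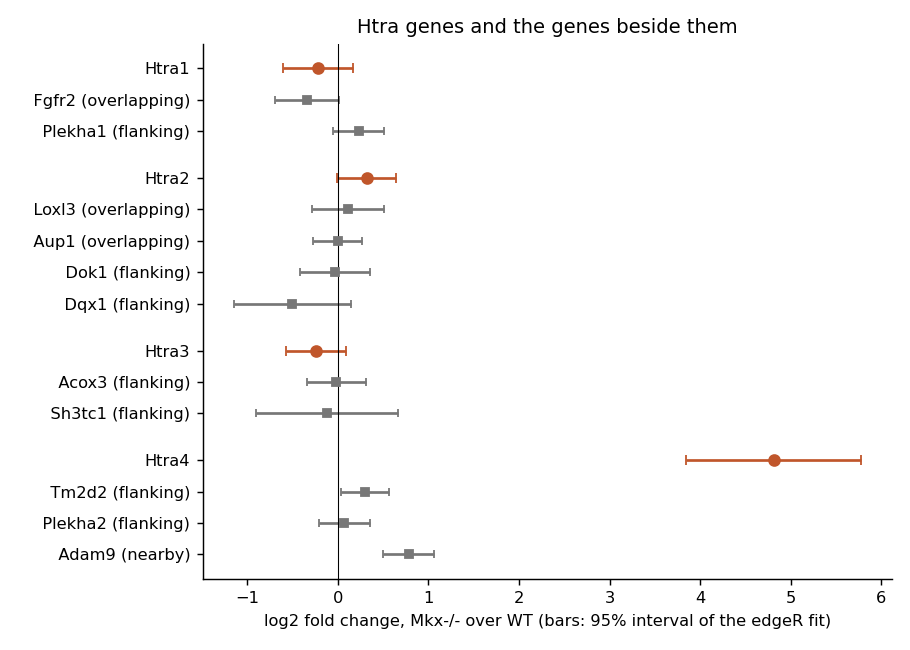
Log2 fold change of *Mkx*-/- over WT (horizontal axis) with its 95% interval from the edgeR fit, for each Htra gene (orange circles) and the tested genes that overlap, flank or lie near it (grey squares). *Htra4* at 4.81 lies far from its neighbours *Tm2d2* at 0.30, *Plekha2* at 0.073 and *Adam9* at 0.78.

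The genes whose log2 CPM followed that of each Htra gene most closely over the 6 libraries were listed among tested genes whose mean reached 5 CPM. For *Htra4* these were *Sod3*, *Fn1*, *Acp5*, *Rgs11* and *Mmp2*, with Pearson r between 0.993 and 0.997. The points fall into the 2 genotypes and *Htra4* was chosen for its difference between them, so these values describe a shared step and have no p. *Sod3*, which encodes the extracellular superoxide dismutase, was at 83.5, 83.3 and 77.8 CPM in WT libraries and at 253, 299 and 216 CPM in *Mkx*-/- tendons. *Fn1*, fibronectin, was at 1091, 1021 and 931 CPM and at 2774, 3175 and 2850 CPM. Like *Htra4*, these genes were highest in *Mkx*-/- replicate 2, but their steps were smaller, with log2FC values of 1.65 and 1.53. *Acp5*, the acid phosphatase of osteoclasts, went from 4.49, 5.01 and 4.73 CPM to 21.5, 25.4 and 20.1 CPM.

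The 5 closest genes of the other members did not include a matrix protease. For *Htra1* they were *Rspry1*, *Dusp12*, *Derl1*, *Mcts1* and *3632451O06Rik* (r between 0.980 and 0.986), and for *Htra3* *Ccnl1*, *Ndufaf7*, *Znf512b*, *Pnpla6* and *Ncoa5* (r between 0.982 and 0.995). *Htra2* was followed by *Plod3*, a lysyl hydroxylase of collagen, *Eng*, a TGF-beta co-receptor of endothelium, *2610001J05Rik*, *Pde9a* and *Lsm1* (r between 0.983 and 0.989). The libraries share their depth and scaling among all genes, and 6 points give many high values among 14550 genes.

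Proteins outside the cell or at its surface, known to be cut or bound by HtrA1 or HtrA3 and mostly of the matrix, made up a list of 17 genes, all tested. In *Mkx*-/- tendons 3 were called upregulated and 0 downregulated, where 1.89% and 1.33% of all tested genes were called, and 13 were higher and 4 lower. The median log2FC was 0.50, against -0.0037 over all tested genes. The 3 called genes encode the proteoglycan biglycan, fibronectin and the cartilage proteoglycan aggrecan. *Bgn* rose from 964, 1268 and 1009 CPM to 5175, 4358 and 4777 CPM, a log2FC of 2.14 (standard error 0.18, adjusted p in edgeR = 0.00115). *Fn1* rose by 1.53 on the log2 scale (adjusted p in edgeR = 0.00173). *Acan* rose from 21.3, 34.5 and 40.3 CPM to 172, 109 and 160 CPM, a log2FC of 2.20 (standard error 0.26, adjusted p in edgeR = 0.00380). In each the *Mkx*-/- libraries lay well above the WT libraries. *Acan* is also one of the cartilage markers, whose sum was higher in the *Mkx*-/- libraries, and the part of cartilage in these values was not tested.

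The most abundant genes of that list in WT were other small proteoglycans of tendon, which did not pass the test, and in *Mkx*-/- tendons *Bgn* came between them. *Fmod*, fibromodulin, was at 16300 ± 853 CPM in WT libraries and 17564 ± 2120 CPM in *Mkx*-/- tendons, and *Dcn*, decorin, at 4354 ± 404 and 4256 ± 97.1 CPM (SD, n = 3 each), with log2FC values of 0.11 and -0.033 (adjusted p in edgeR = 0.800 and 0.934). *Ltbp1*, which stores latent TGF-beta in the matrix, fell from 141, 189 and 193 CPM to 100, 77.1 and 98.9 CPM. Its log2FC of -0.92 passed the adjusted p (0.0215 in edgeR) but not the size needed for a call. It was called without WT replicate 1 (log2FC -1.05) and without *Mkx*-/- replicate 1 (log2FC -1.01). Without *Mkx*-/- replicate 1 the count of called genes was 5, with *Vtn*, a gene for a blood and matrix protein, at 2.08. *Vtn* was also called by DESeq2 and with the filter of 1 count in any library, at a log2FC of 1.65 and 1.68.

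Of 26 ligands, receptors and early targets of the TGF-beta family, 24 were tested, and 2 were called upregulated and 0 downregulated, against 1.89% and 1.33% of all tested genes. The median log2FC was 0.12, against -0.0037 over all tested genes, with 13 genes higher and 11 lower. *Ctgf*, an early target that encodes a matricellular protein and the most abundant gene of the list, was one of the called genes. It was at 922, 955 and 742 CPM in WT libraries and at 2414, 2199 and 1412 CPM in *Mkx*-/- tendons, so the groups did not overlap. It had a log2FC of 1.20 (adjusted p in edgeR = 0.0226), and missed the threshold in 4 of the 6 leave-one-out fits, those without WT replicate 2 or 3 or *Mkx*-/- replicate 1 or 2 (adjusted p = 0.0826, 0.106, 0.0582 and 0.0744). *Tgfbi*, the next most abundant, was at 460 ± 33.2 and 571 ± 80.7 CPM (SD, n = 3 each), with a log2FC of 0.31 (adjusted p in edgeR = 0.262). Of the receptors, *Bmpr1b* fell by 0.84 on the log2 scale (adjusted p in edgeR = 0.0252), which is below the size needed for a call. It was called downregulated without *Mkx*-/- replicate 1 (log2FC -1.002, adjusted p in edgeR = 0.0270), a fit in which *Ctgf* was not called.

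The proteases and inhibitors around HtrA were taken as a pair of further lists. Of 24 other secreted or membrane-bound serine proteases 15 were tested, with 2 called upregulated and 1 downregulated, against 1.89% and 1.33% of all tested genes, and a median log2FC of 0.54. *Habp2* was at 0 in every library. *Pcsk5*, a proprotein convertase, rose from 31.4, 31.9 and 25.6 CPM to 130, 98.5 and 109 CPM, a log2FC of 1.93 (standard error 0.15, adjusted p in edgeR = 0.000878). *C1rl*, a relative of a complement protease, rose from 3.47, 3.14 and 3.52 CPM to 9.98, 10.3 and 8.09 CPM (log2FC 1.48, adjusted p in edgeR = 0.00416). *Masp1*, a protease of the lectin pathway of complement, fell from 10.7, 7.66 and 12.2 CPM to 0.366, 1.55 and 0.793 CPM (log2FC -3.44, adjusted p in edgeR = 0.00332). None of the 3 overlapped between the genotypes, as was so for 28.2% of all tested genes. The most abundant proteases of the list were *Pcsk6*, at 189 ± 11.2 and 305 ± 11.1 CPM, and *Prss23*, at 213 ± 24.0 and 195 ± 3.16 CPM (SD, n = 3 each). *Pcsk6* passed the adjusted p (0.0165 in edgeR) with a log2FC of 0.69, below the size needed for a call, and *Prss23* did not (0.602).

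Of 24 serine protease inhibitors 19 were tested, with 2 called upregulated and 0 downregulated, against 1.89% and 1.33% of all tested genes, and a median log2FC of 0.38. One of them is *Spint1*, which encodes an inhibitor of cell-surface serine proteases, at 2.13, 2.94 and 3.93 CPM in WT libraries and 5.13, 9.77 and 9.04 CPM in *Mkx*-/- tendons. Its log2FC of 1.41 (standard error 0.31, adjusted p in edgeR = 0.0415) was past the threshold in only 1 of the 6 leave-one-out fits, that without *Mkx*-/- replicate 1 (0.0259), and reached 0.126 without WT replicate 2. The abundant inhibitors were *Serpinf1*, which encodes PEDF, at 4743 ± 314 CPM in WT libraries and 3797 ± 280 CPM in *Mkx*-/- tendons, and *Serpinh1*, the collagen chaperone Hsp47, at 1470 ± 394 and 1455 ± 285 CPM (SD, n = 3 each). Their log2FC values were -0.32 and -0.014 (adjusted p in edgeR = 0.286 and 0.983).

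The HtrA2 list holds proteins that HtrA2 binds and other genes of the pathways it takes part in. None of its genes was called by edgeR under the reported processing. Of 29 genes for inhibitor-of-apoptosis proteins, other factors of mitochondrial apoptosis and mitochondrial quality control, 28 were tested and 0 called in either direction, with 6 lower and 0 higher at an unadjusted p under 0.05, against 10.1% lower and 12.5% higher among all tested genes. DESeq2 called 1, *Sept4* (log2FC -1.44, adjusted p = 0.0164), where edgeR gave -1.43 with an adjusted p of 0.117. With the filter of 1 count in any library edgeR called it too (log2FC -1.42, adjusted p = 0.0130). *Sept4* was at 24.3, 7.95 and 8.17 CPM in WT libraries and at 3.66, 7.17 and 4.04 CPM in *Mkx*-/- tendons, so WT replicate 1 stood apart. The median log2FC was -0.19, with 21 genes lower and 7 higher, and 0.053 when libraries were scaled by total counts alone, which puts the median of all genes at 0.25. The most abundant were *Pink1*, a kinase of mitochondrial quality control, at 201 ± 49.2 and 180 ± 45.9 CPM, and *Birc6*, an inhibitor-of-apoptosis gene, at 59.5 ± 5.80 and 51.3 ± 3.78 CPM (SD, n = 3 each). *Xiap*, which encodes the inhibitor that HtrA2 is best known to bind, was at 34.1, 31.9 and 37.5 CPM in WT libraries and 25.4, 25.3 and 27.3 CPM in *Mkx*-/- tendons, groups that did not overlap, with a log2FC of -0.41 that did not pass the test (adjusted p in edgeR = 0.0858).

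**Figure D5:**
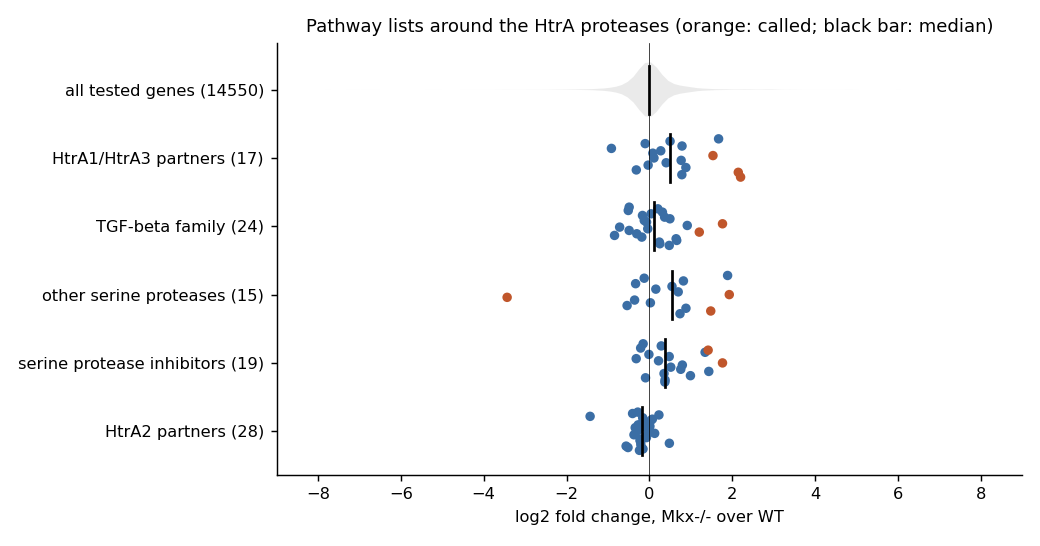
Log2 fold change of *Mkx*-/- over WT (horizontal axis) for all 14550 tested genes (grey shape) and for the tested members of 5 pathway lists (points, orange where called), with medians as black bars. The list of HtrA1 and HtrA3 partners holds 3 called genes at 1.53 to 2.20, and the called gene far to the left is *Masp1* at -3.44. The row labelled HtrA2 partners, which includes other genes of mitochondrial apoptosis and quality control, holds 0.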

How the data were processed

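RNA of 6 tail tendon libraries (3 WT, 3 *Mkx*-/-) was sequenced on the Ion Proton. The authors removed adaptors and poor reads, aligned to mm9 with MapSplice and deposited raw counts per gene symbol, without normalization. The counting program, its annotation and its use of strand are not given in the sources used here. All columns matched a sample, and 0 were left out. Depth of 10835070 to 14160301 counts leaves *Htra4* in WT with large counting error.

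From the counts, edgeR 4.0.16 in R 4.3.3 gave TMM-scaled CPM, filterByExpr kept 14550 genes, and a quasi-likelihood test on genotype alone was adjusted by Benjamini-Hochberg over all of them. Fold changes use a prior count of 0.125, and correlations log2 CPM with a prior count of 2. DESeq2 1.42.0, the study's tool, was an alternative, with other scalings, filters, a robust fit, removal of muscle markers, a replicate block and each library left out. The fit was tested on simulated counts. Replicates differed by 7.59 to 36.4 in chi-square per degree of freedom, so no library was a repeat. Whether samples were separate animals is not stated, so p-values measure the spread between these samples.

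Members and lists were chosen with earlier results of these data known. Named genes are the members, *Mkx*, neighbours, the 5 closest patterns, and the called (up to 6) and 2 most abundant genes (over all libraries) of each list, with marker genes at 0. *Adam9*, *Ltbp1*, *Bmpr1b*, *Xiap*, *Vtn*, *Erg* and *Sept4* were named after their values were seen. List contents rest on general knowledge of the proteins. Some genes stand in more than 1 list, and *Acan*, *Fmod*, *Dcn* and *Comp* are also tissue markers. Some genes that the rule names are counted in their lists but not reported here by name. Sequences and coordinates come from GENCODE and the mm9 genome.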

Additional observations from a re-analysis of the deposited data

How the results depend on the processing

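Over 15 alternatives *Htra4* kept its direction wherever it could be fitted, at a log2 fold change of 4.34 to 5.07. It has no value when every library must hold 10 counts, which removes it. *Htra1*, *Htra2* and *Htra3* kept direction and stayed short of the threshold in all but library size only, where *Htra1* was at 0.037, *Htra2* at 0.58 (adjusted p = 0.0327) and *Htra3* at 0.0061. That scaling moved the median of all genes to 0.25, and made the calls 711 upward, with 6 HtrA1 or HtrA3 partners, 6 serine proteases and 5 inhibitors. A filter of 1 count in any library gave 541 upward and 322 downward calls, 1 gene of the HtrA2 list and 6 inhibitors, where 275, 193, 0 and 2 were reported. DESeq2 gave 1 gene of the HtrA2 list and 4 inhibitors.

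Leaving out a library in turn gave 103 to 321 upward and 112 to 248 downward calls, lowest without WT replicate 3. Without WT replicate 2, *Mkx*-/- replicate 2 or *Mkx*-/- replicate 3 the upward calls were 119, 155 and 177, and without WT replicate 2 or *Mkx*-/- replicate 3 the downward calls were 113 and 121. The called HtrA1 or HtrA3 partners numbered 3 to 5, the TGF-beta genes 1 to 2, the proteases 3 to 4, the inhibitors 1 to 2 and the genes of the HtrA2 list 0. The members ranged from -0.38 to -0.11 for *Htra1*, 0.21 to 0.41 for *Htra2*, -0.35 to -0.17 for *Htra3* and 4.34 to 5.01 for *Htra4*. Apart from library size only, the cause of these differences was not tested.

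Same-numbered samples did not pair: their deviations from the group means correlated at 0.026, -0.21 and 0.30. With the replicate block *Htra1*, *Htra2*, *Htra3* and *Htra4* were at -0.22, 0.32, -0.23 and 4.73. Per kilobase of the union of exons the WT and *Mkx*-/- levels were 194 and 167 CPM for *Htra1*, 151 and 128 for *Htra3* and 16.3 and 20.3 for *Htra2*, and per kilobase of the longest transcript *Htra2* was at 17.9 and 22.3. The order of the 4 genes stayed as reported. The 6 to 9 WT reads of *Htra4* limit its fold change.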
